A study of Mus musculus with 10 samples.

Results

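The genes described here are 49 genes of transforming growth factor beta (TGF-beta), bone morphogenetic protein (BMP) and activin signalling, of 19659 genes measured in all. They were chosen by name, as ligands, receptors, antagonists, Smads and Id target genes, and each was read by 1 probe set. The data are 10 one-colour arrays, 1 for each female F2 mouse, and each array was hybridised with biotin-labelled DNA made from RNA of inguinal-femoral white fat taken at 14 weeks of age. FF mice (n = 5) were homozygous for the allele of the Fat line at Fob3a, an obesity locus on chromosome 15, and VV mice (n = 5) were homozygous for the allele of the congenic V line there. The V line had been bred from a recombinant founder by repeated backcrossing to the Fat line with marker selection against other obesity loci, so both groups were largely of Fat-line background, and the V allele is also called the lean-line allele in the labels. All mice ate chow and none was treated. The comparison asks how the genotype at Fob3a relates to expression in this fat depot. Its p-values measure the spread between these 10 animals.

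In this pathway, dimeric ligands of the TGF-beta, BMP, growth differentiation factor (GDF) and activin groups bring together type II and type I receptors, which are serine/threonine kinases. The type I receptor then phosphorylates Smad2 and Smad3 (TGF-beta and activin branch) or Smad1, Smad5 and Smad9 (BMP branch), which enter the nucleus with Smad4. Id genes are direct targets of the BMP branch, and Smad6 and Smad7 are induced inhibitors that feed back on the receptors. In fat, TGF-beta and activins are known to restrain adipocyte differentiation, Bmp4 to commit precursors to the adipocyte lineage, Bmp7 to favour brown adipocytes, Bmp8b to act in thermogenic fat, and Gdf3 to signal to adipocytes through the receptor ALK7, the product of Acvr1c.

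The RNA levels of these genes differed little between the genotypes, and protein and Smad phosphorylation were not measured on these arrays. In limma with Benjamini-Hochberg adjustment over all genes, 1 member of 49 had an adjusted p below 0.05: Gdf3 fell in FF fat, and no member rose. Over all genes the share past that threshold was 0.753%, with 0.621% higher and 0.132% lower in FF. At an unadjusted p under 0.05 the count was 4 of 49, or 8.16%, against 16.4% of all genes (10.2% higher and 6.18% lower in FF). Those 4 were Gdf3, the secreted glycoprotein Fstl1 and the transcriptional inhibitor Id2, which were lower in FF, and Smad2, which was higher. The FF and VV mice did not overlap for 1 member, Gdf3, or 2.04% of the 49, against 4.7% of all genes (3.36% with FF above and 1.34% with FF below). The median difference of the members, FF minus VV, was -0.04 log2 units beside 0.00081 over all genes, and 31 of the 49 differences (63.3%) were negative, beside 49.7% over all genes. The median of the members varied between single mice of a genotype with an SD of 0.05. That is a spread of mice and not the error of a difference between groups, and the median difference was not tested. It was -0.02 after centring arrays on their median, where that of all genes was 0.02. With mice left out it lay between -0.05 and -0.02 (lowest in size without VV replicate 5). For 47 of the 49 genes the 95% interval of the difference lay inside a 1.5-fold change in either direction, and for 35 it lay inside 1.25-fold. The exceptions at 1.5-fold were Fst and Id2. None of the 4 Id genes lay inside 1.25-fold. The signal of 15 of the 49 members lay below the median of all gene means. Whether their probe sets read RNA above background was not tested.

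**Figure D1:**
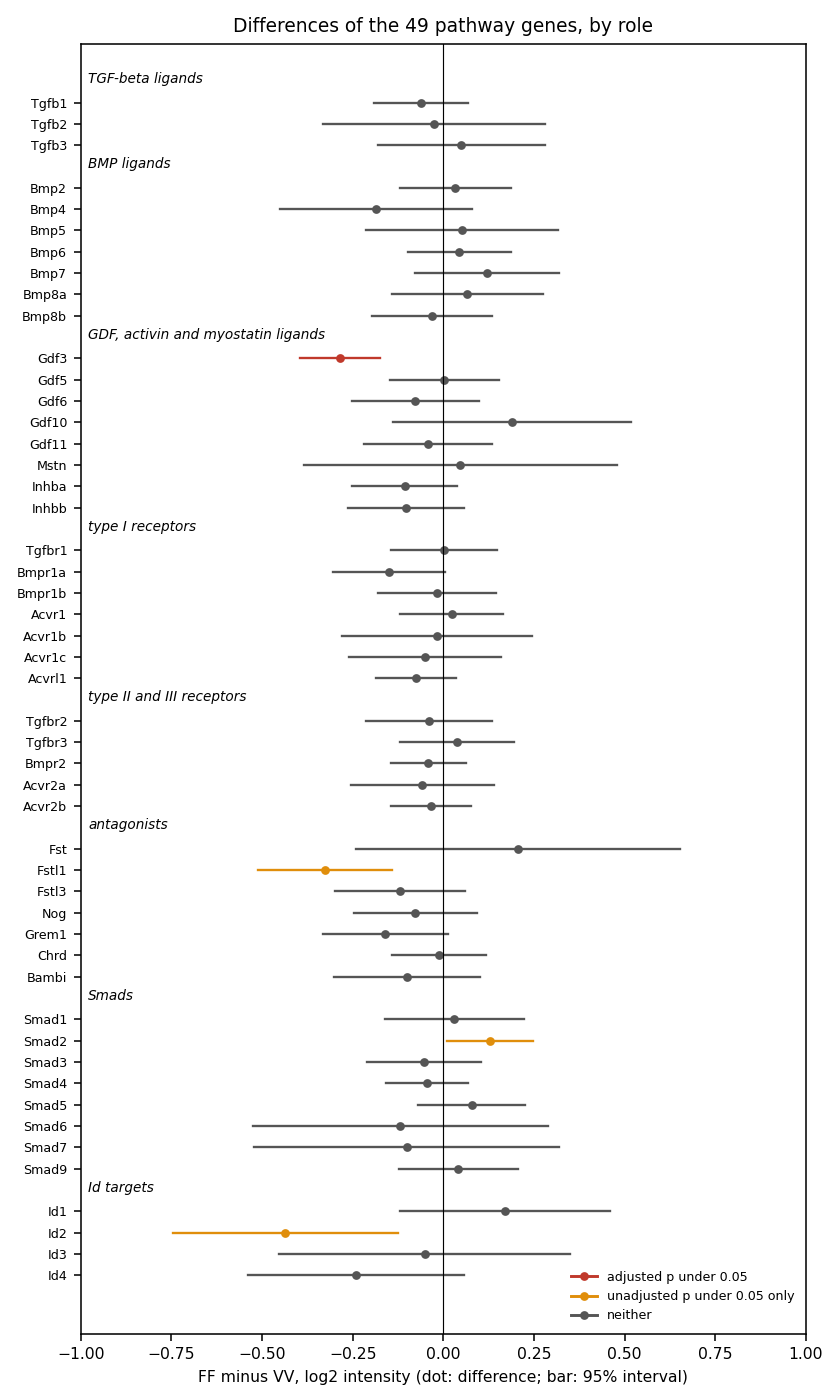
FF minus VV difference in log2 intensity (x axis) with its 95% interval from limma for each of the 49 genes, grouped by role (y axis). The interval of Gdf3, -0.40 to -0.17, is the one whose adjusted p is under 0.05, and those of Fstl1, Id2 and Smad2 exclude 0 at an unadjusted p only.

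Promoters are shown for the antagonist gene Fstl1 and the target genes Id2, Id3 and Smad6. These were chosen as members on which the results for antagonists and target genes turn and which RefSeq's table on GRCm38.p6 holds. That table held no promoter of Gdf3, the single member past the threshold, nor of Id1. The promoters shown run from 250 bases before to 50 after the annotated start. They lie at chr16:37776805-37777104 (plus strand), chr12:25096043-25096342 (minus strand), chr4:136143572-136143871 (plus strand) and chr9:64022010-64022309 (minus strand), and each is printed 5′ to 3′ along its gene. Capitals mark matches to GGCGCC, a GC-rich element of BMP Smads, to CAGAC or its complement GTCTG, the short Smad element, and to GTCTAGAC, the palindromic Smad element, which was added after the Smad6 sequence had been read.
Fstl1: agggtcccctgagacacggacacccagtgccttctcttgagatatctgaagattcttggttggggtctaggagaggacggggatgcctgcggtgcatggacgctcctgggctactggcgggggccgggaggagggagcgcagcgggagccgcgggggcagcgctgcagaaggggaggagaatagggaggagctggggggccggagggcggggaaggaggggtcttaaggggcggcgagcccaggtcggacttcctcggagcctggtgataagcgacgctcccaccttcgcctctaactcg
Id2: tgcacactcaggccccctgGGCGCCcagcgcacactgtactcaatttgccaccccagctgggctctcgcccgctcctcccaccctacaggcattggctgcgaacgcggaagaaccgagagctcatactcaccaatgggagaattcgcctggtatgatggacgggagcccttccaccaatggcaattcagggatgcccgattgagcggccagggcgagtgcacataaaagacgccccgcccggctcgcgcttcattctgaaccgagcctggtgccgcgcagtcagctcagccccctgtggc
Id3: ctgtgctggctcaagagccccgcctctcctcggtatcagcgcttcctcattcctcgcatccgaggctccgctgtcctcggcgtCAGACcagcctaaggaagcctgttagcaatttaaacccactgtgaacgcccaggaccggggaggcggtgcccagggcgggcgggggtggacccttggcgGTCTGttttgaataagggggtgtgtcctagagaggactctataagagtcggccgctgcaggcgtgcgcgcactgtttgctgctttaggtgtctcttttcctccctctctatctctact
Smad6: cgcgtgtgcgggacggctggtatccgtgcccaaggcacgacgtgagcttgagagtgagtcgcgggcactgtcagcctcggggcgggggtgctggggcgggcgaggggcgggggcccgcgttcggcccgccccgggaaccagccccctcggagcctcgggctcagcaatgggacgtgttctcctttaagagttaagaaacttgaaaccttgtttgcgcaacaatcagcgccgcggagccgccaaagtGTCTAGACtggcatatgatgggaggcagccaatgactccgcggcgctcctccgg
Id2 held 1 GGCGCC, Id3 held CAGAC once on each strand, Smad6 held GTCTAGAC once across its annotated start, and Fstl1 held none of these. Of all 32851 promoters of this length, 11.9% held GGCGCC, 49.6% held CAGAC on either strand and 0.213% held GTCTAGAC. A match is a run of letters and was not tested as a binding site.

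The 4 promoters were rich in G and C, with 66.67% in Fstl1, 63.33% in Id2, 60% in Id3 and 66.33% in Smad6, against a median of 52.67% over all promoters. The table held promoters for 34 of the 49 genes, 40 in all, of which 30% held GGCGCC and 45% held CAGAC on either strand. GTCTAGAC was held by 1 of these 34 genes, Smad6, whose sequence had been read before that motif was added. Its share over all promoters is therefore no measure of how rare the Smad6 match is. Their median G and C content was 66.5%.

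Several facts of the whole set bear on these genes. Levels are log2 intensities, given as the mean ± SD of the 5 mice of a genotype unless single mice are named. Mature adipocyte markers were high in every mouse, with mean levels over 6 genes of 13.11 to 13.24 in FF and 13.13 to 13.24 in VV. Deptor, the gene named in the title, was higher in FF (10.88 ± 0.07 in FF and 10.34 ± 0.10 in VV, adjusted p = 0.00553 in limma), and so was Ucp1, the uncoupling protein of brown and beige adipocytes (11.12 ± 0.76 in FF and 7.16 ± 0.74 in VV, adjusted p = 0.00553). All 8 brown and beige markers lay higher in FF by unadjusted p and 5 rose past the threshold. Of the markers of immune cells, all 5 macrophage and 4 of 5 genes listed for lymphocytes had an unadjusted p under 0.05. These were lower in FF, and 1 of them passed the threshold, Ptprc. It was listed with the lymphocyte genes but encodes CD45, an antigen of leukocytes in general. Liver markers stood out in VV replicate 1 (mean level 11.89 over 6 genes, against 6.92 to 8.72 in the other VV mice and 7.02 to 7.50 in FF), and skeletal muscle markers in FF replicate 1 (9.55 over 5 genes, against 7.07 to 7.76 in the other FF mice and 7.19 to 7.98 in VV). No liver, muscle or mammary epithelial marker passed the threshold.

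Gdf3, a ligand of the GDF group, was the single member past the threshold. Its log2 intensities in replicates 1 to 5 were 6.17, 6.12, 6.15, 6.19 and 6.22 in FF mice, against 6.47, 6.53, 6.55, 6.33 and 6.40 in VV mice. Every FF mouse lay below every VV mouse. The group means were 6.17 ± 0.04 over the 5 FF mice and 6.46 ± 0.09 over the 5 VV mice (SD). The difference was -0.29 log2 units (SE 0.05), a level in FF 0.820 times that in VV with a 95% interval of 0.760 to 0.886. In limma the adjusted p was 0.0352, and Gdf3 held rank 80 by p among the 19659 genes. The call was lost in most fits with fewer mice: the adjusted p was 0.0366 without FF replicate 3 and 0.0499 without VV replicate 4, but lay between 0.0533 and 0.102 without any other single mouse, and it was 0.107 without FF replicate 1 and VV replicate 1 together. After a further quantile normalization of the deposited values it was 0.0696. Array medians over all valued probe sets were slightly lower in FF, at most 7.17 against at least 7.18 in VV. After centring each array on the median of its 19659 gene values, the adjusted p of Gdf3 in limma was 0.0348. The signal of Gdf3 was low on the array, below the median of all gene means (7.53) and not far above their lower quartile (5.99). Whether it lay above the background of its probes was not tested.

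Macrophages are a known source of Gdf3 in mouse fat, and their markers were lower in FF as well. The 5 macrophage genes had a mean level of 9.68 to 10.03 in FF mice and 10.06 to 10.48 in VV mice, so that these ranges did not overlap either. Adgre1, which encodes the macrophage antigen F4/80, was 9.75 ± 0.20 in FF and 10.28 ± 0.31 in VV (adjusted p = 0.105 in limma), and Cd68 was 10.87 ± 0.20 in FF and 11.28 ± 0.28 in VV (adjusted p = 0.159). None of the 5 macrophage genes passed the threshold. In a piece of tissue, fewer cells of a type and less RNA per cell cannot be told apart, and the part of macrophage number in the difference of Gdf3 was not tested.

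**Figure D2:**
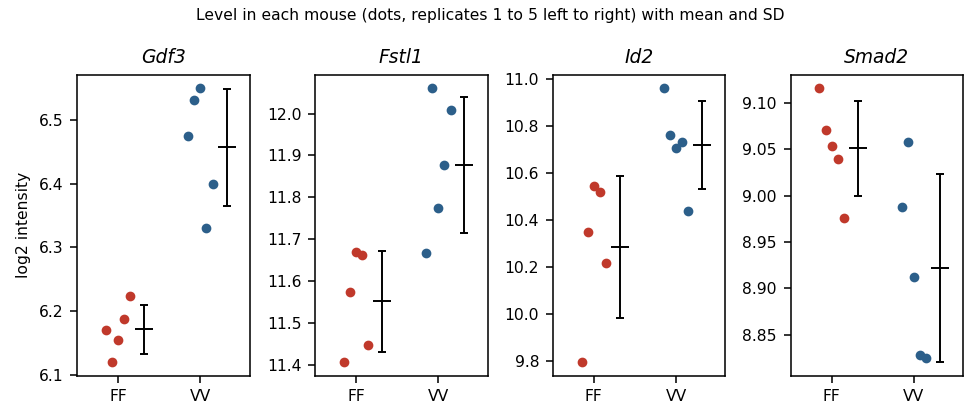
Log2 intensity (y axis, a scale of its own in each panel) of the 4 members with an unadjusted p under 0.05 in FF mice (left) and VV mice (right), with replicates 1 to 5 from left to right and the mean and SD beside them. The FF and VV dots are separate for Gdf3 and meet or overlap for Fstl1, Id2 and Smad2.

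The other ligands did not pass the threshold, and their adjusted p-values in limma lay between 0.463 and 0.990. Of the TGF-beta ligands, Tgfb1 had 9.47, 9.46, 9.44, 9.48 and 9.58 in FF replicates 1 to 5, against 9.41, 9.70, 9.57, 9.60 and 9.44 in VV replicates 1 to 5. The FF mice were close together and the VV mice lay on both sides of them. Tgfb3 had 9.88, 9.97, 10.33, 9.79 and 9.74 in FF, with FF replicate 3 the highest of all mice, against 9.76, 9.997, 9.80, 10.03 and 9.87 in VV. The differences of Tgfb1, Tgfb2 and Tgfb3 were -0.06, -0.03 and 0.05 log2 units. Among the BMP ligands, those known for thermogenic fat gave small differences beside a Ucp1 level 15.6 times as high in FF. Bmp7 had 7.33, 7.41, 7.42, 7.71 and 7.48 in FF and 7.14, 7.40, 7.25, 7.39 and 7.58 in VV, largely overlapping sets with a difference of 0.12 (95% interval -0.08 to 0.32). Bmp8b was 6.41 ± 0.15 in FF and 6.44 ± 0.10 in VV, a difference of -0.03 (-0.20 to 0.14). Bmp8a, its close paralogue, differed by 0.07 (-0.14 to 0.27). Whether the probes of these paralogues read each other's RNA was not analysed here. The signals of Bmp7, Bmp8a and Bmp8b lay below the median of all gene means, which limits what these small differences say about their RNA. Bmp4, the ligand of adipocyte commitment, had 10.48, 10.75, 10.91, 10.60 and 10.19 in FF replicates 1 to 5, against 10.75, 10.83, 10.56, 10.84 and 10.88 in VV replicates 1 to 5. FF replicate 5 was the lowest and FF replicate 3 the highest of all mice, and the difference of -0.18 (-0.45 to 0.08) was within the spread of the mice and was -0.09 without FF replicate 5. Bmp2, Bmp5 and Bmp6 differed by 0.03, 0.05 and 0.04.

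Of the activin subunits, Inhba had 6.62, 6.82, 6.88, 6.83 and 6.82 in FF, against 6.85, 6.94, 6.75, 6.94 and 7.03 in VV. FF replicate 1 was its lowest mouse and VV replicate 5 its highest, and the ranges overlapped. Inhba and Inhbb gave differences of -0.11 (-0.25 to 0.04) and -0.10 (-0.26 to 0.06). Gdf10, a BMP-related ligand, had 10.001, 9.70, 10.48, 9.65 and 9.57 in FF replicates 1 to 5, against 9.66, 9.66, 9.82, 9.64 and 9.70 in VV replicates 1 to 5. Its difference of 0.19 rested on FF replicate 3, the highest mouse, and was 0.04 without it. Mstn, which encodes myostatin and is made mainly by skeletal muscle, had 6.42, 5.36, 5.21, 5.52 and 5.56 in FF and 5.47, 5.84, 5.48, 5.40 and 5.65 in VV. FF replicate 1, the mouse with the highest muscle markers, was the highest for Mstn too, and the difference of 0.05 was -0.15 without that mouse. Gdf5, Gdf6 and Gdf11 differed by 0.0029, -0.08 and -0.04. The mean signals of Inhba, Mstn, Gdf5, Gdf6 and Gdf11 lay below the median of all gene means, and that of Mstn below their lower quartile (5.99). These low signals limit what the small differences say about the RNA of these genes.

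Receptor genes gave the smallest differences of all the roles, with a median size of 0.02 log2 units for type I and 0.04 for type II and III receptors. None of the 7 type I receptors or of the 5 type II and type III receptors passed the threshold or an unadjusted p under 0.05, and 11 of these 12 differences were under 0.08 log2 units in size. The exception was Bmpr1a, a type I receptor for BMP ligands. It had 10.40, 10.59, 10.66, 10.59 and 10.73 in FF replicates 1 to 5, against 10.66, 10.85, 10.68, 10.87 and 10.67 in VV replicates 1 to 5. The groups overlapped, and the difference was -0.15 (SE 0.07, adjusted p = 0.320 in limma). Acvr1c, which encodes ALK7, the adipocyte receptor to which Gdf3 binds, had 10.74, 10.82, 10.84, 10.75 and 10.76 in FF and 10.77, 10.57, 11.01, 11.13 and 10.69 in VV. The VV mice were spread over both sides of the FF mice, and the difference was -0.05 (-0.26 to 0.16). Tgfbr1 and Tgfbr2, the type I and type II receptors for TGF-beta, differed by 0.0024 and -0.04, and Tgfbr3, the co-receptor betaglycan, by 0.04. The BMP type I receptors Acvr1 and Bmpr1b, known as ALK2 and ALK6, differed by 0.02 (-0.12 to 0.16) and -0.02 (-0.18 to 0.14). Bmpr2, the main type II receptor for BMP ligands, had 11.56, 11.64, 11.67, 11.56 and 11.59 in FF and 11.60, 11.71, 11.58, 11.74 and 11.59 in VV. Its mice lay closer together within groups than those of any other member, and the difference was -0.04. Acvr2b, an activin type II receptor, had 7.12, 6.96, 7.04, 7.18 and 7.09 in FF and 7.10, 7.09, 7.11, 7.20 and 7.05 in VV. The VV range lay inside the FF range but for 1 mouse, with a difference of -0.03, and its relative Acvr2a differed by -0.06. Acvr1b and Acvrl1, the receptors ALK4 and ALK1, are the 2 members on chromosome 15, which carries Fob3a. Acvrl1 had 9.03, 9.07, 9.18, 9.04 and 9.19 in FF, against 9.13, 9.20, 9.21, 9.25 and 9.09 in VV. These ranges overlapped, with a difference of -0.07 (-0.18 to 0.04), and that of Acvr1b was -0.02 (-0.28 to 0.24).

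Among the antagonists, 6 of 7 differences were negative, with a median of -0.10, and none passed the threshold. Fstl1, follistatin-like 1, a secreted glycoprotein of mesenchymal cells, had 11.41, 11.57, 11.67, 11.66 and 11.45 in FF replicates 1 to 5, against 11.67, 12.06, 11.77, 11.88 and 12.01 in VV replicates 1 to 5. The groups met at 11.67, where the highest FF mouse and the lowest VV mouse lay. The means were 11.55 ± 0.12 over the 5 FF mice and 11.88 ± 0.16 over the 5 VV mice (SD), a difference of -0.33 (SE 0.08) and a level in FF 0.798 times that in VV (0.702 to 0.907). The adjusted p in limma was 0.0902. Markers of preadipocytes and fibroblasts were lower in FF too: all 6 measured genes had negative differences, 2 with an unadjusted p under 0.05, and their mean level was 10.48 to 10.92 in FF and 10.70 to 11.06 in VV. Col3a1, a collagen of fibroblasts, differed by -0.36 (adjusted p = 0.0805) and Pdgfra, a receptor of adipose progenitors, by -0.26 (adjusted p = 0.439). The part of these cells in the difference of Fstl1 was not tested.

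Fst, which encodes follistatin, the soluble binder of activins, was the most variable member. It had 8.25, 8.76, 9.44, 8.75 and 8.45 in FF replicates 1 to 5 and 8.35, 8.42, 8.67, 8.27 and 8.91 in VV replicates 1 to 5. FF replicate 3 was the highest of the 10 mice, and the difference of 0.21 (95% interval -0.24 to 0.65) was 0.03 without it. Fstl3, a second activin binder, differed by -0.12. Grem1, the BMP antagonist gremlin, had 6.57, 6.45, 6.44, 6.65 and 6.74 in FF replicates 1 to 5, against 6.60, 6.65, 6.69, 6.94 and 6.77 in VV replicates 1 to 5. FF replicates 1, 2 and 3 lay below all VV mice and the other FF mice lay among them, with a difference of -0.16 (-0.33 to 0.01, adjusted p = 0.348 in limma). The BMP antagonists Nog and Chrd differed by -0.08 and -0.01, and Bambi, a decoy receptor, by -0.10.

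The Smad genes split evenly, with 4 positive and 4 negative differences. Smad2, which carries the TGF-beta and activin signal, had 9.12, 9.07, 9.05, 9.04 and 8.98 in FF replicates 1 to 5, against 8.99, 9.06, 8.91, 8.83 and 8.82 in VV replicates 1 to 5. All FF mice but 1 lay above 4 of the VV mice, and VV replicates 1 and 2 lay inside the FF range. The difference was 0.13 (SE 0.05), or 1.09-fold (1.01 to 1.19), with an adjusted p of 0.266 in limma. Its partner Smad3 differed by -0.05 (-0.21 to 0.11), the common Smad4 by -0.04 (-0.16 to 0.07), and the BMP-branch genes Smad1 and Smad9 by 0.03 and 0.04. Smad5, also of the BMP branch, had 9.41, 9.72, 9.65, 9.54 and 9.47 in FF and 9.46, 9.51, 9.35, 9.57 and 9.52 in VV. FF replicates 2 and 3 were its highest mice, with a difference of 0.08 (-0.07 to 0.23). The inhibitory Smads varied widely from mouse to mouse. Smad6, an inhibitor of the BMP branch, had 8.32, 8.42, 8.39, 8.35 and 9.28 in FF replicates 1 to 5 and 8.49, 8.75, 9.005, 8.75 and 8.37 in VV replicates 1 to 5. Smad7 had 8.11, 7.86, 8.18, 7.92 and 8.84 in FF and 8.08, 8.42, 8.74, 8.18 and 8.003 in VV. For both genes FF replicate 5 was the highest of the 10 mice and VV replicate 3 the second highest, and the differences were -0.12 (-0.53 to 0.29) and -0.10 (-0.52 to 0.32). Without FF replicate 5 they were -0.30 for Smad6 (adjusted p = 0.241 in limma) and -0.27 for Smad7, still with no call.

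The 4 Id genes did not move together between the genotypes. Id2, an inhibitor of basic helix-loop-helix transcription factors, had 9.80, 10.35, 10.54, 10.52 and 10.22 in FF replicates 1 to 5, against 10.96, 10.76, 10.71, 10.73 and 10.44 in VV replicates 1 to 5. FF replicate 1, the mouse with the highest muscle markers, was the lowest, and 2 FF mice lay above the lowest VV mouse. The means were 10.28 ± 0.30 over the 5 FF mice and 10.72 ± 0.19 over the 5 VV mice (SD), a difference of -0.44 (SE 0.14) and a level in FF 0.739 times that in VV (0.597 to 0.916), with an adjusted p of 0.150 in limma. Without FF replicate 1 the difference was -0.31. Id4 had 7.51, 8.11, 8.05, 7.74 and 7.82 in FF replicates 1 to 5, against 7.76, 8.02, 8.09, 8.44 and 8.13 in VV replicates 1 to 5. FF replicate 1 was the lowest mouse and VV replicate 4 the highest, and the difference was -0.24 (-0.54 to 0.06, adjusted p = 0.421 in limma). Id1 differed by 0.17 (-0.12 to 0.46) and Id3 by -0.05 (-0.45 to 0.35), neither at an unadjusted p under 0.05.

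Id1 and Id3 followed each other across mice once the mean of each genotype was taken off. Id1 had 8.49, 8.82, 8.94, 8.98 and 9.14 in FF replicates 1 to 5 and 8.67, 8.96, 8.89, 8.62 and 8.39 in VV replicates 1 to 5. Id3 had 8.61, 8.88, 9.20, 9.11 and 9.56 in FF and 9.13, 9.40, 9.45, 8.83 and 8.80 in VV. For both genes FF replicate 5 was the highest and FF replicate 1 the lowest FF mouse, and VV replicate 5 was the lowest VV mouse. After taking each value as its deviation from the mean of its genotype, the correlation over the 10 mice was Pearson r = 0.944 and Spearman rho = 0.976. Among the 15 pairs of the 4 Id genes, Smad6 and Smad7, a family chosen after their values were seen, the two-sided exact permutation p within genotypes, adjusted over the 15 pairs, was 0.00625 for r and 0.0104 for rho, and r was 0.941 without the 2 mice farthest from the median of Id1. Smad6 and Smad7 gave r = 0.923 (exact permutation, adjusted p = 0.0302) and rho = 0.697 (exact permutation, adjusted p = 0.121). That pair leaned on 2 mice: without FF replicate 5 and VV replicate 3, r was 0.593, and without FF replicate 5 alone the adjusted p of r was 0.184 (r = 0.819, exact permutation). The adjusted p of the Smad pair also rose above 0.05 in every fit that left out a single VV mouse (0.0504 to 0.151, exact permutation). Without FF replicate 1 and VV replicate 1 together the adjusted p was 0.0608 for both pairs, with r = 0.925 for the Id pair and r = 0.935 for the Smad pair. The other 13 pairs had r between -0.09 and 0.77, with adjusted p-values (exact permutation) between 0.102 and 0.973. Pairs of genes outside this family were not examined, so whether such correlations are particular to these genes was not tested. With 5 mice per genotype no correlation was computed within 1 group. Endothelial cells are a known site of Id1 and Id3 expression. The mean level of 8 endothelial markers was 10.20 to 10.49 in FF and 10.17 to 10.40 in VV, 10.35 in FF replicate 5, and no endothelial marker passed the threshold or an unadjusted p under 0.05. Their part in the Id levels was not tested.

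**Figure D3:**
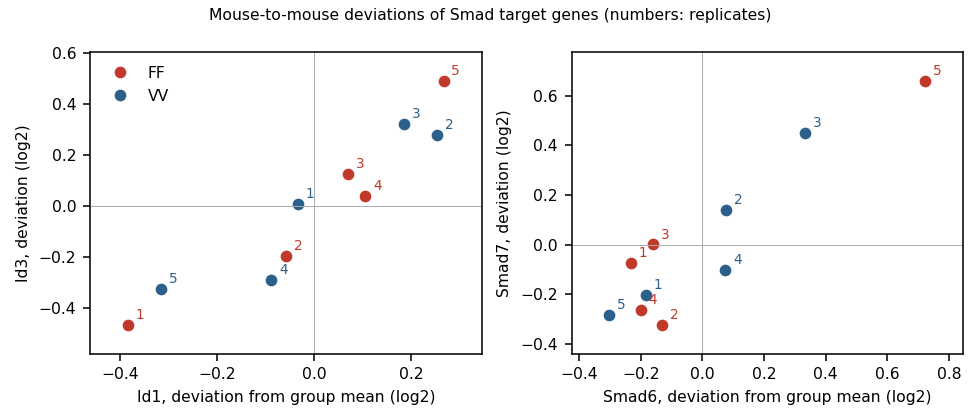
Deviation of each mouse from the mean of its genotype, in log2 units, for Id3 against Id1 (left) and Smad7 against Smad6 (right), with FF mice in red, VV mice in blue and replicate numbers beside the dots. The Id dots rise along a line (r = 0.944), while the Smad panel is drawn out by FF replicate 5 and VV replicate 3.

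Other genes of the pathway, listed for their known roles, gave a picture like that of the 49. Of 55 measured, none passed the threshold in limma, while 5 (9.09%) had an unadjusted p under 0.05, beside 16.4% of all genes. Bmp1, a protease that cleaves the BMP antagonist chordin and procollagens, was 10.14 ± 0.18 in FF and 10.37 ± 0.12 in VV (difference -0.23, adjusted p = 0.228 in limma). Nodal, an embryonic ligand, differed by -0.14 (adjusted p = 0.252) at a low signal. Rgma, a BMP co-receptor, was 9.49 ± 0.20 in FF and 9.27 ± 0.09 in VV (difference 0.23, adjusted p = 0.228), and Hjv, the related co-receptor hemojuvelin, differed by 0.13. Tgif2, a corepressor of Smads, differed by -0.15 (adjusted p = 0.292) and Zfyve9, the Smad anchor SARA, by 0.15 (adjusted p = 0.298). Among extracellular regulators, Ltbp2, a matrix protein related to the binders of latent TGF-beta, differed by 0.14 and Dcn, the proteoglycan decorin, by -0.07. Of TGF-beta target genes, Tgfbi differed by -0.13 and Tsc22d1 by -0.10, and Ccn2, a matrix growth factor, by -0.02 (-0.63 to 0.60). Inhbc, an activin subunit made by liver, was 7.80 in VV replicate 1, the mouse with the highest liver markers, against 6.14 to 6.30 in the other VV mice and 6.04 to 6.12 in FF.

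Mouse-to-mouse spread differed widely between roles. The median SD within groups was 0.25 log2 units for the Id genes and 0.12 for the type II and III receptors, beside 0.11 over all genes. FF replicate 3 was the highest of the 10 mice for 11 members (22.4%), among them Fst, Gdf10 and Tgfb3, and for 14.3% of all genes. FF replicate 1 was the lowest for 12 members (24.5%), among them Id2, Id3, Id4, Inhba and Bmpr1a, and for 14.3% of all genes.

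**Figure D4:**
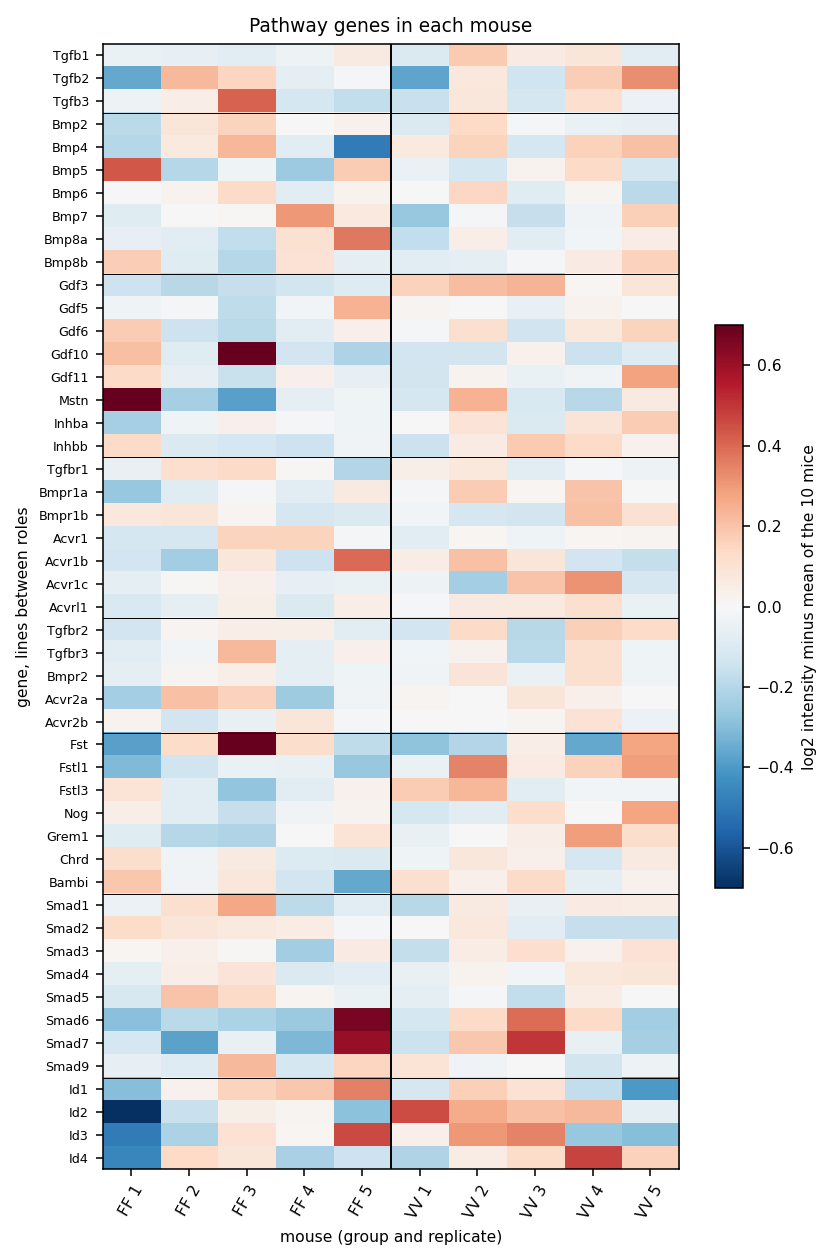
Log2 intensity of each of the 49 genes (rows, in the order of their roles) in each mouse (columns, FF left and VV right), with the mean of the 10 mice subtracted and the colour scale ending at 0.7 in either direction. Gdf3 lies below its mean in all FF mice and above it in all VV mice, and single mice stand out for Smad6 and Smad7 (FF replicate 5), Mstn (FF replicate 1) and Fst and Gdf10 (FF replicate 3).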

How the data were processed

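Expression in subcutaneous fat was measured on 10 one-colour arrays, 5 of FF and 5 of VV mice, grouped by the genotype the labels give. The authors deposited 1 table of log2 intensity values per probe set, made with RMA per the submitters' processing notes, whose version is not given in the sources used here. Of 35557 probe sets, 25689 held values on all 10 arrays, and 20777 of those named 1 gene in the platform annotation (232 named several and 4680 were not in it, and are unnamed here). Symbols were updated through the gene identifier in RefSeq's table on GRCm38.p6, which matched 20699 probe sets. Where a gene had several probe sets (566 of 19659 genes), the one with the highest mean over the 10 arrays was kept. The array medians over the 25689 probe sets ran from 7.15 to 7.17 in FF and from 7.18 to 7.21 in VV, so they did not overlap. Precision is limited by the number of arrays.

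The genotypes were compared with limma 3.58.1 in R 4.3.3, by lmFit and eBayes on the log2 values of all 19659 genes, with Benjamini-Hochberg adjustment over all of them and a threshold of 0.05. The fit was tested on simulated data. Exact permutation tests of correlations ran in Python. The members, the gene lists and the tests were chosen with earlier results of these data known. Per-mouse values were given for members past the threshold, those with an unadjusted p under 0.05 and the 2 of each role with the smallest p. Of the other pathway genes, the 2 of each list with the smallest p were named. Further members and genes given by mouse were chosen for their role or after their values were seen. Among them were Gdf10, Mstn, Acvr1c, Fst, Smad6, Smad7, Id1, Id3 and Inhbc. Ccn2, given only as a difference with its interval, was chosen in the same way. Of 59 other pathway genes 55 were measured, and of 57 markers 55. Alternatives covered filters on low signal, array centring, quantile normalization, array weights, the replicate number as a block, an adjusted p of 0.10, and leaving out mice. Scanner files and scan batches were not analysed here.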

Additional observations from a re-analysis of the deposited data

Results flagged for a closer look

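For 5 of the 98 groups tested (49 members in each genotype), 1 mouse stood far from the other 4 mice of its genotype by Dixon's test, and chance flags about 1 in 20 groups. Tgfb1 was 9.5757 in FF replicate 5, above the other FF mice, of which the nearest had 9.4765. Smad6 was 9.2752 in the same mouse, beside 8.4231 in the next FF mouse. Mstn was 6.4239 in FF replicate 1, the mouse with the highest skeletal muscle markers, beside 5.5618 in the next FF mouse. Inhba was 6.6182 in FF replicate 1, below the nearest FF mouse at 6.8173. Smad3 was 9.1278 in FF replicate 4, below the nearest FF mouse at 9.3763. All 5 flags fell in the FF group, on FF replicates 1, 4 and 5 only, and none of these genes passed the threshold between the genotypes.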

How the results depend on the processing

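Under 20 alternatives, Gdf3 was lower in FF each time it was tested. Its adjusted p was 0.0696 after quantile normalization, it was left out by a filter at the median signal, and its difference was -0.32 to -0.26 with mice left out. The count of members past the threshold was 1, with 0 after the median filter, quantile normalization or the replicate block, 2 at an adjusted p of 0.10 (with Fstl1), and 0 to 1 without mice. Over all genes 148 passed, against 383 with array weights, 338 after centring arrays, 230 and 355 with filters at the 25th percentile and the median, 95 after quantile normalization, 704 at an adjusted p of 0.10, and 7 to 379 without mice, the lowest without VV replicate 2 and the highest without FF replicate 3. The median difference of the members stayed between -0.05 and -0.02, and no other pathway gene passed in any fit.

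The replicate numbers did not pair the mice: deviations of same-numbered mice correlated between -0.2642 and 0.1024, and only number 1 matched its own number best. With the replicate number as a block, 5 genes passed and Gdf3 had an adjusted p of 0.169.

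Sign changes touched 22 members, none called in any fit, and 27 kept their sign. Differences changed sign with array weights for Tgfb2 (0.0051), Mstn (-0.0031) and Bmpr1b (0.0039), after centring for Bmpr1b (0.0024), Acvr1b (0.0027) and Chrd (0.0093), and after quantile normalization for Bmp8b (0.0191), Tgfbr1 (-0.0219), Bmpr1b (0.0201), Acvr1 (-0.0006), Acvr2b (0.0100) and Chrd (0.0118). The causes were not tested. Without mice, the ranges that crossed 0 were Tgfb2 -0.12 to 0.0611, Tgfb3 -0.0465 to 0.0991, Bmp2 -0.0023 to 0.0845, Bmp5 -0.0552 to 0.12, Bmp8a -0.0177 to 0.12, Bmp8b -0.0989 to 0.0153, Gdf5 -0.0579 to 0.0483, Gdf11 -0.12 to 0.0239, Mstn -0.18 to 0.15, Tgfbr1 -0.0314 to 0.0538, Bmpr1b -0.0534 to 0.0302, Acvr1 -0.0131 to 0.0569, Acvr1b -0.12 to 0.0399, Acvr1c -0.12 to 0.0218, Tgfbr3 -0.0151 to 0.0694, Chrd -0.0526 to 0.0117, Smad1 -0.0332 to 0.0807, Smad3 -0.11 to 0.0007, Smad7 -0.27 to 0.0110, Smad9 -0.0099 to 0.0901 and Id3 -0.17 to 0.0664.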
